A study of Mus musculus with 41 samples.

Results

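The acute-phase genes described here are Serpina3n, Lcn2, Saa3, Orm1, Hp and Ptx3, 6 of the 13283 genes that had a named probe on the arrays. They were chosen by name, and every probe listed for them was read: 1 probe each for Serpina3n, Lcn2, Saa3 and Orm1, 2 for Ptx3 and 3 for Hp. Where a gene had several probes, the probe of highest mean gave its main value. Their RNA was read on 41 Illumina arrays, each of a cell fraction that had been purified by flow sorting from thymuses of C57Bl/6 males. One fraction, TEC, is the CD45- EpCAM+ thymic epithelium, and the other, nonTEC, is the CD45- EpCAM- stroma, CD45 being a surface protein of leukocytes and EpCAM one of epithelium. The mice were middle-aged (9 to 12 months) or young (5 to 6 weeks) and unoperated, or middle-aged and surgically castrated or sham-castrated 4 or 7 days before, and for TEC also 20 days before. There were 3 arrays in each of the 8 TEC groups and in 5 of the 6 nonTEC groups, and 2 arrays of nonTEC from sham mice at day 7. The aim stated for the series was to follow gene expression in ageing and in the transient regrowth of the thymus after castration. The labels do not say whether the arrays of a group came from separate mice, so a p-value reflects array-to-array spread, which may be technical, and the small number of arrays limits the precision. In RNA from a sorted fraction, fewer cells of a type and less RNA per cell cannot be told apart.

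Acute-phase proteins are secreted proteins whose production, above all by the liver, changes during infection or injury. Interleukin-6 type cytokines act through the transcription factor STAT3, and interleukin-1 and tumour necrosis factor act through NF-kB and C/EBP factors, to switch on their genes, and glucocorticoids strengthen many of these responses. Epithelia, fibroblasts, adipocytes, macrophages and maturing neutrophils make some of the same proteins locally. Serpina3n encodes a secreted inhibitor of serine proteases, among them granzyme B. Lcn2 encodes lipocalin 2, which withholds iron from bacteria by binding their siderophores and is also stored in neutrophil granules. Saa3 encodes a serum amyloid A protein made mainly outside the liver. Orm1 encodes alpha-1-acid glycoprotein, a plasma carrier of lipophilic molecules, and Hp encodes haptoglobin, which captures free haemoglobin. Ptx3 encodes the long pentraxin, a pattern-recognition protein of innate immunity that binds microbes and complement C1q.

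The 250 bases before the transcription start are shown for the 4 members whose promoter is in the RefSeq table (build GRCm38.p6), because the members moved in opposite directions in the comparisons that follow, and STAT3, C/EBP and NF-kB are the factors known for the control of acute-phase genes. Each is read 5′ to 3′ on the strand of its gene, with letters that match a searched motif in capitals. Serpina3n lies on the plus strand at chr12:104406458-104406707, Lcn2 on the minus strand at chr2:32387740-32387989, Saa3 on the minus strand at chr7:46715677-46715926 and Ptx3 on the plus strand at chr3:66219637-66219886.
Serpina3n: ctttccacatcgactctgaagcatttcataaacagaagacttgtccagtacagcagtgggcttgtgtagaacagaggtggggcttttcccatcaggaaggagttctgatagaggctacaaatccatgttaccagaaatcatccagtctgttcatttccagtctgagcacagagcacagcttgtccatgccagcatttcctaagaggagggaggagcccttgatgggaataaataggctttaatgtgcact
Lcn2: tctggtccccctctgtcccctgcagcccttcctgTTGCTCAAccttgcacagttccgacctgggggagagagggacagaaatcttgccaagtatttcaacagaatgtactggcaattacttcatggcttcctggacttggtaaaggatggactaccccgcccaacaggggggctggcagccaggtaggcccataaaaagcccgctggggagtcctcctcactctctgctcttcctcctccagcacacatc
Saa3: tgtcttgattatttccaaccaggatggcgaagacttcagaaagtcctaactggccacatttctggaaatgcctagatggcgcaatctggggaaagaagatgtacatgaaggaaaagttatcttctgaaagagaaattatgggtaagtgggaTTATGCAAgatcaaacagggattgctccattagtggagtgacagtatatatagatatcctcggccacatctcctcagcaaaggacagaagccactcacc
Ptx3: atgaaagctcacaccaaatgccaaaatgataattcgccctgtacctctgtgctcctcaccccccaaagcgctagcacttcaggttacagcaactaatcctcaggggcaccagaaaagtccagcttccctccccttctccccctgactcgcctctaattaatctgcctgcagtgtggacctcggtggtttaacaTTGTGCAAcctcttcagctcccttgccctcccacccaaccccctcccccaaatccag
Motifs were searched on both strands: TTCNNNGAA for STAT3, TTGCNNAA for C/EBP, and GGGANNTTC for NF-kB. The C/EBP letters matched once in Lcn2, 216 to 209 bases before the start, once in Saa3, 99 to 92 bases before it, and once in Ptx3, 57 to 50 bases before it. Serpina3n held none of the 3 motifs, and neither the STAT3 nor the NF-kB letters occurred in any of the 4 windows. Of the 32851 promoters in the table, 9.56% held the C/EBP letters in a window of the same length, 7.02% the STAT3 letters and 3.23% the NF-kB letters. No window held more than 1 match, so no matches overlapped.

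Epithelial markers set the 2 fractions apart, and some TEC arrays stood apart from the others of their group. The keratin genes Krt8, Krt18, Krt5 and Krt14 were above the threshold of 6.73 (the median of all values, on the log2 scale) in all 8 TEC groups, and of these Krt8 and Krt14 were also above it in all 6 nonTEC groups, Krt18 in 5 and Krt5 in none. The mean of the epithelial list by group lay between 10.70 and 11.21 in TEC and between 5.75 and 7.45 in nonTEC. In TEC, Foxn1, the regulator of thymic epithelium, was below it in all 8 and the cortical gene Psmb11 was above it in 4. All 10 fibroblast markers measured were above it in all 6 nonTEC groups, and Dcn and Pdpn were also above it in all 8 TEC groups. Arrays of the same group correlated at 0.854 or more over all probes, with that minimum among middle-aged TEC, and 0 pairs of arrays were identical. Sham day 4 TEC array 3 had a mean over the thymocyte markers of 8.66, where the other arrays of its group had 6.27 and 6.29, and a mean over the endothelial markers of 8.67, where they had 6.41 and 6.21. An alternative fit left out 4 TEC arrays that stood apart, namely this one, arrays 2 and 3 of castrated day 4, and the third array from unoperated middle-aged mice. That fit kept only array 1 of castrated day 4 TEC. Its values stand beside the members' calls that it ended or made. Differences are on the log2 scale, where 1 is a 2-fold difference, are given with their standard error (SE), and were tested in limma with Benjamini-Hochberg adjustment over all genes tested and a threshold of 0.05.

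**Figure D1:**
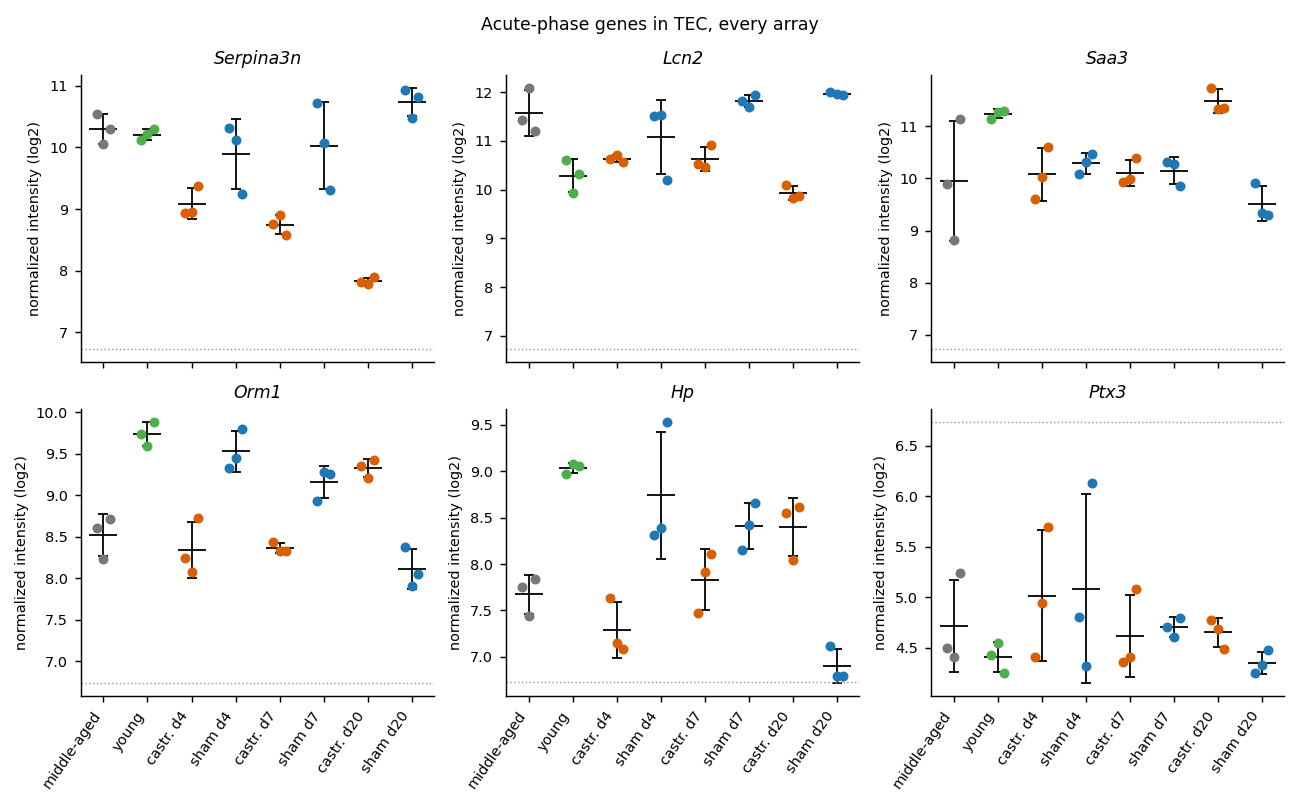
Normalized log2 intensity of each acute-phase gene (y axis, 1 panel a gene, main probe) on every TEC array, by group (x axis). Points are arrays, horizontal marks are group means, bars are 1 SD (n = 3) and the dotted line is the threshold of 6.73. The 3 castrated day 20 arrays are the lowest of all 24 for Serpina3n, and every Ptx3 value lies under the threshold.

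In TEC 5 of the 6 genes were above the threshold in all 8 groups, and Ptx3 was below it in all 8, with group means from 4.35 to 5.09. Serpina3n was highest in sham day 20 TEC (10.74 ± 0.23, SD, n = 3) and lowest in castrated day 20 TEC (7.83 ± 0.05). Its 5 groups without castration overlapped their neighbours in the order, and castrated day 4 (9.09 ± 0.25), day 7 (8.75 ± 0.16) and day 20 followed as the lowest, each apart from the next. Saa3 had these extremes the other way round, with sham day 20 TEC lowest (9.52 ± 0.34) and castrated day 20 TEC highest (11.48 ± 0.23), apart from young TEC (11.24 ± 0.09), which was apart from the other 6 groups. Lcn2 ran from 9.93 ± 0.14 in castrated day 20 TEC and 10.28 ± 0.34 in young TEC up to 11.97 ± 0.03 in sham day 20 TEC. Only the highest Lcn2 group was apart from its neighbour. Orm1 was highest in young TEC (9.74 ± 0.15), with sham day 4, castrated day 20 and sham day 7 TEC next, and these 4 groups were apart from the remaining 4, which lay between 8.11 ± 0.24 and 8.52 ± 0.26. Hp also had young TEC at its top (9.04 ± 0.05) and sham day 20 TEC at its foot (6.90 ± 0.18), and neighbouring groups overlapped throughout.

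**Figure D2:**
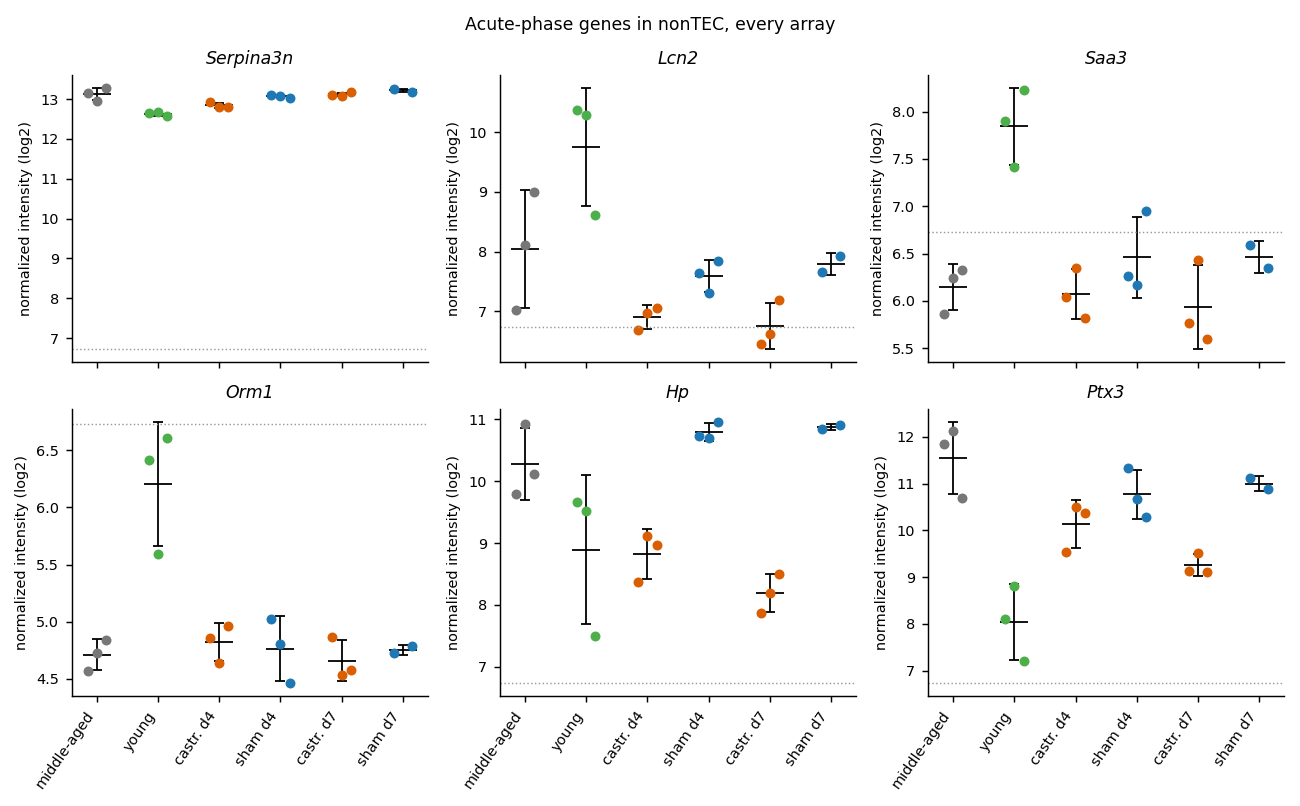
Normalized log2 intensity of each acute-phase gene (y axis, 1 panel a gene, main probe) on every nonTEC array, by group (x axis). Points are arrays, horizontal marks are group means, bars are 1 SD (n = 3, or 2 for sham day 7) and the dotted line is the threshold of 6.73. Castrated arrays lie under the sham arrays of the same day for Hp, and young arrays lie lowest for Ptx3 and Serpina3n.

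In nonTEC Serpina3n, Lcn2, Hp and Ptx3 were above the threshold in all 6 groups, Saa3 in young nonTEC only and Orm1 in none. Serpina3n was the steadiest, with group means from 12.63 ± 0.04 in young to 13.21 ± 0.04 in sham day 7 nonTEC (n = 2). Ptx3 spanned the widest range, from 8.04 ± 0.81 in young to 11.55 ± 0.77 in middle-aged nonTEC. Castrated day 7 nonTEC (9.25 ± 0.23) lay between young and all other groups and was apart from both its neighbours. Hp fell into an upper set of sham day 7 (10.88 ± 0.05), sham day 4 (10.80 ± 0.14) and middle-aged nonTEC (10.28 ± 0.59) and, apart from it, a lower set of young (8.89 ± 1.20), castrated day 4 (8.82 ± 0.40) and castrated day 7 nonTEC (8.19 ± 0.31). For Lcn2 young nonTEC stood highest (9.76 ± 0.99), and both castrated groups (6.90 ± 0.20 at day 4 and 6.75 ± 0.39 at day 7) lay apart below the sham groups but overlapped middle-aged nonTEC, whose lowest array read 7.02. Saa3 and Orm1 had young nonTEC apart at the top (7.84 ± 0.41 and 6.21 ± 0.54). The remaining 5 groups lay beneath it, each overlapping its neighbour in the order, from 5.94 to 6.47 for Saa3 and from 4.66 to 4.82 for Orm1.

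Set between the fractions, Saa3 and Orm1 were higher in TEC, and Serpina3n and Ptx3 were higher in nonTEC. In middle-aged mice 6 of 6 genes were called, where 70.2% of the 8487 genes tested were. Only Serpina3n, Lcn2 and Hp were above the threshold on both sides, with differences, TEC minus nonTEC, of -2.83 ± 0.22, 3.53 ± 0.38 and -2.61 ± 0.36 (limma's largest adjusted p = 1.7e-07). Ptx3 in TEC, Orm1 in nonTEC and Saa3 in middle-aged nonTEC were under the threshold, and the first pair entered the fit only through the fraction where they are high. Their calls were therefore set by the filter, and the sizes of such differences depend on the low end of the scale. Ptx3 averaged 4.72 ± 0.46 in middle-aged TEC and 11.55 ± 0.77 in middle-aged nonTEC, Orm1 8.52 ± 0.26 in TEC and 4.71 ± 0.14 in nonTEC, and Saa3 9.95 ± 1.15 in TEC and 6.14 ± 0.24 in nonTEC (SD, n = 3 each). The other Hp probes gave -4.01 and -4.08. The median over all genes was -0.24 in middle-aged and -0.30 in young mice. In young mice 4 of 6 were called, against 66.5% of all genes, and the exceptions were Lcn2 (0.53 ± 0.38, adjusted p = 0.22) and Hp (0.15 ± 0.36, adjusted p = 0.738). Without young nonTEC array 3 these became -0.05 for Lcn2 and -0.55 for Hp (adjusted p = 0.922 and 0.116), and the other Hp probes gave -0.92 and -0.47. Arrays of the 2 fractions appear to have been normalized separately before deposit, with array medians of 6.68 in TEC and 6.81 to 6.82 in nonTEC, so these differences carry an unknown offset. Young Lcn2 passed the threshold when each array was centred on its median (0.90, adjusted p = 0.0365).

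The ageing comparison asked how the genes differ between middle-aged and young mice. In middle-aged TEC Lcn2 was higher and Saa3, Orm1 and Hp were lower than in young TEC, while Serpina3n differed by less than the spread between arrays. These were 4 of the 5 members tested, against 18.6% of the 8195 genes tested in TEC. Lcn2 read 11.43, 12.10 and 11.20 in middle-aged TEC, against 10.61, 9.93 and 10.32 in young TEC. All middle-aged arrays were above all young ones, and the difference was 1.29 ± 0.27, or 2.44-fold higher (adjusted p = 0.00356). Orm1 read 8.61, 8.23 and 8.72 in middle-aged TEC, against 9.74, 9.59 and 9.88 in young TEC. The groups did not overlap, and Orm1 fell by 1.22 ± 0.18 (2.33-fold lower, adjusted p = 0.000246). Hp read 7.75, 7.44 and 7.84 in middle-aged TEC, against 8.98, 9.08 and 9.06 in young TEC. Again no array crossed over, and Hp fell by 1.36 ± 0.27 (adjusted p = 0.00207). Its other probes differed by -1.28 and -1.60. Saa3 read 9.89, 8.83 and 11.13 in middle-aged TEC, against 11.14, 11.28 and 11.29 in young TEC. Middle-aged array 3 lay at the edge of the young arrays and array 2 far below, and the fall of 1.29 ± 0.37 (adjusted p = 0.0209) became 0.73 with an adjusted p of 0.122 when middle-aged array 2 was left out. Serpina3n read 10.54, 10.06 and 10.31 in middle-aged TEC and 10.12, 10.22 and 10.29 in young TEC, which overlapped (0.09 ± 0.28, adjusted p = 0.842). The Saa3 call was also lost without young array 2 or 3 (adjusted p = 0.067 and 0.0587), and all 4 calls were lost when only these 6 arrays were fitted (adjusted p from 0.0815 to 0.261).

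In nonTEC 5 of the 5 members tested were called with age, where 32.4% of the 7762 genes tested were. Saa3 was tested only because it was above the threshold in young nonTEC, the 1 group of 6 where it was, so its call was set by the filter. Ptx3, Hp and Serpina3n rose, and Lcn2 and Saa3 fell. Ptx3 read 11.85, 12.13 and 10.68 in middle-aged nonTEC, against 8.10, 8.81 and 7.21 in young nonTEC. Each middle-aged array was above each young one, and the difference of 3.51 ± 0.38 was 11.4-fold (adjusted p = 7.16e-06). The second Ptx3 probe gave 3.52. Serpina3n read 13.16, 12.95 and 13.27 in middle-aged nonTEC, against 12.64, 12.66 and 12.58 in young nonTEC. The groups did not overlap and the rise was small, 0.50 ± 0.10 (adjusted p = 0.00101), and was not called when all 41 arrays were fitted together (adjusted p = 0.0962). Hp read 9.79, 10.93 and 10.12 in middle-aged nonTEC, against 9.66, 9.51 and 7.50 in young nonTEC. The ranges were apart but young array 3 lay far below the others of its group, and the rise of 1.39 ± 0.40 (adjusted p = 0.0142) became 0.70 without that array (adjusted p = 0.0757) and 1.07 without middle-aged array 2 (adjusted p = 0.0681). Its other probes rose by more, 1.81 and 2.01.

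**Figure D3:**
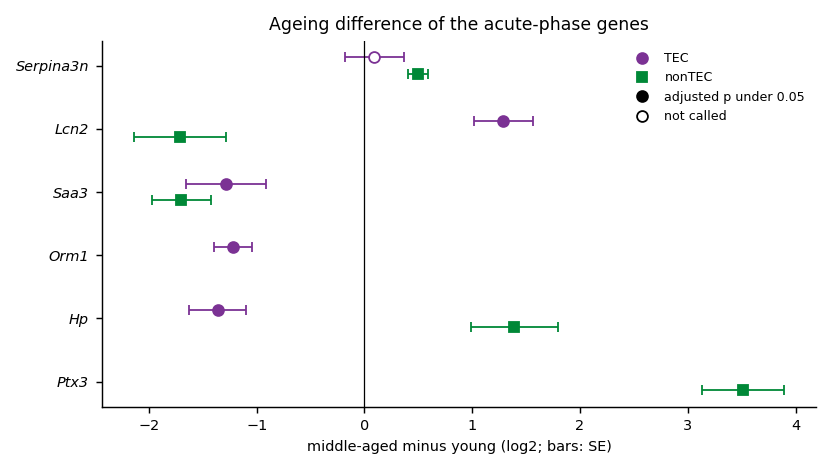
Middle-aged minus young difference of each acute-phase gene (log2, x axis) in TEC (circles) and nonTEC (squares), with bars of 1 SE. Filled symbols passed an adjusted p of 0.05 in limma. Genes not tested in a fraction have no symbol there. Lcn2 (1.29 in TEC and -1.71 in nonTEC) and Hp (-1.36 and 1.39) lie on opposite sides of 0 in the 2 fractions.

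Lcn2 and Saa3 were the members that were lower in middle-aged nonTEC. Lcn2 read 7.02, 8.11 and 9.00 in middle-aged nonTEC, against 10.37, 10.29 and 8.61 in young nonTEC. The highest middle-aged array exceeded the lowest young one, so the groups overlapped, and Lcn2 fell by 1.71 ± 0.42 (adjusted p = 0.00564). With only the groups compared in limma's fit, the call was lost for Lcn2 (adjusted p = 0.0525) and for the rise of Hp (adjusted p = 0.0862). Saa3 read 5.87, 6.24 and 6.32 in middle-aged nonTEC, against 7.90, 7.41 and 8.22 in young nonTEC. The groups were apart and Saa3 fell by 1.70 ± 0.28 (adjusted p = 0.000276), to a level under the threshold. Orm1 was too dim to be tested and read 4.57, 4.73 and 4.84 in middle-aged nonTEC, against 6.42, 5.59 and 6.61 in young nonTEC.

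Markers of neutrophils, cells that store lipocalin 2 and haptoglobin in their granules, moved with age in both fractions. In nonTEC the mean over the 14 neutrophil markers measured read 5.67, 5.63 and 8.55 on middle-aged arrays 1 to 3, against 10.67, 10.27 and 7.63 on young arrays 1 to 3. Lcn2 had its lowest young value and its highest middle-aged value on the same arrays as this mean, array 3 of each group, as the plot of Lcn2 and Hp against the neutrophil mean shows. Hp was lowest on that young array too, but was higher in middle-aged nonTEC, where the markers were lower. Of the 12 tested all 12 were called lower in middle-aged nonTEC, but 8 of them, among them the granule genes Ngp, Prtn3 and Ctsg, passed the threshold in only 1 of the 6 nonTEC groups, so this count was largely set by the filter. S100a8 and S100a9 were above it in all 6 nonTEC groups, Ltf in 4, Mpo in 3, and Csf3r, the receptor of granulocyte colony-stimulating factor, in none. In the 4 operated nonTEC groups the neutrophil mean lay between 5.51 and 6.21. In TEC 6 of 8 neutrophil markers tested fell with age, where 18.6% of all genes were called. However, Ngp, Prtn3, Ctsg, Retnlg and Csf3r were under the threshold in all 8 TEC groups. The list's mean read 7.47, 7.05 and 8.18 in middle-aged TEC, against 8.27, 8.30 and 8.24 in young TEC. Other cell types' markers moved with age as well. In nonTEC 4 of 5 epithelial, 5 of 6 thymocyte and 4 of 4 pan-leukocyte markers tested fell, where 32.4% of all genes were called. Of those tested, the epithelial genes Aire and Cldn4 passed the threshold in only 1 of the 6 nonTEC groups. The leukocyte gene Rac2 passed it in 2, and the thymocyte genes Rag1 and Dntt in 3, so the filter could set part of these counts. The epithelial mean read 5.74, 6.57 and 6.69 on middle-aged arrays, against 7.36, 7.03 and 7.95 on young arrays. In TEC, where 18.6% of all genes were called, 3 of 4 pan-leukocyte and 1 of 4 macrophage markers fell. Of 6 pericyte and smooth muscle markers 4 fell and 1 rose. The part of any of these cells in the members' differences was not tested.

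**Figure D4:**
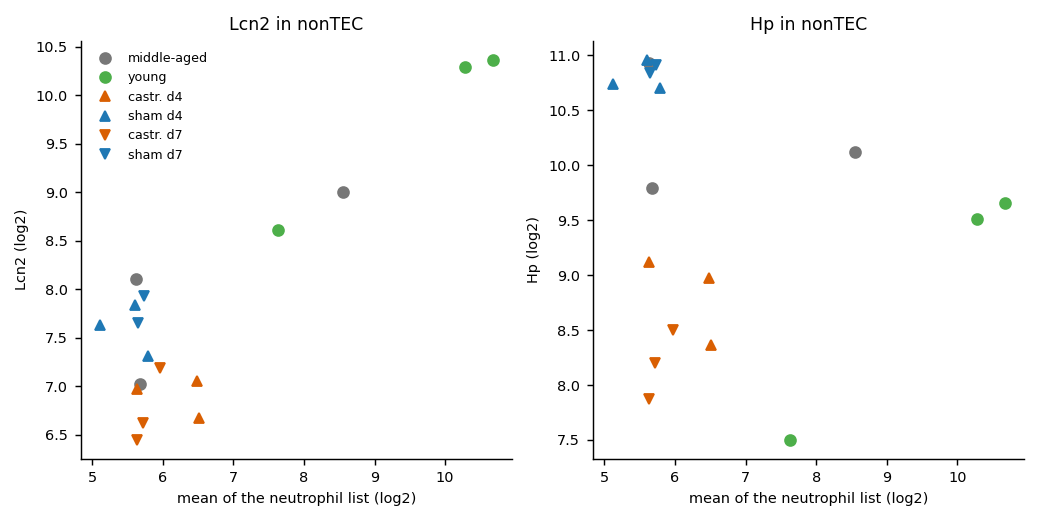
Lcn2 (left) and Hp (right), log2 intensity on the y axis, against the mean of the 14 neutrophil markers measured in nonTEC (x axis, log2), 1 point an array, colours and shapes by group. For Lcn2 the 3 young arrays and middle-aged array 3 lie above and to the right of the other 13 arrays, while Hp is lowest on a young array and highest on a sham array.

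The ageing difference itself differed between the fractions for Lcn2 and Hp, and 3 of 6 members were called, where 11.2% of 8487 genes were. The third was Ptx3, which was under the threshold in all 8 TEC groups, so that its call (-3.20 ± 0.56, adjusted p = 0.000353) adds nothing to its rise in nonTEC. For Lcn2 the difference in TEC exceeded that in nonTEC by 3.0 ± 0.53 (adjusted p = 0.000379). For Hp the value was -2.75 ± 0.51 (adjusted p = 0.000612). Neither was called when only the groups compared were fitted (adjusted p = 0.0638 for Lcn2 and 0.0611 for Hp). Saa3 gave 0.41 ± 0.48 (adjusted p = 0.619) and Serpina3n -0.41 ± 0.31 (adjusted p = 0.423).

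Castration removes testicular androgen, and each castrated group was set against the sham group of its own day. In TEC at day 4 Orm1 and Hp were lower in castrated than in sham mice, 2 of the 5 members tested, where 3.82% of all genes were called. Orm1 read 8.24, 8.07 and 8.72 in castrated day 4 TEC, against 9.33, 9.45 and 9.80 in sham day 4 TEC. No array crossed over, and Orm1 fell by 1.18 ± 0.18 (adjusted p = 0.00906). Hp read 7.63, 7.15 and 7.08 in castrated day 4 TEC, against 8.32, 8.38 and 9.53 in sham day 4 TEC. The groups were apart, with the sham array that stood out by its thymocyte and endothelial markers also the highest for Hp, and Hp fell by 1.45 ± 0.27 (adjusted p = 0.0133). Serpina3n differed by -0.80 ± 0.28 (adjusted p = 0.0902), Lcn2 by -0.45 ± 0.27 (adjusted p = 0.299) and Saa3 by -0.21 ± 0.37 (adjusted p = 0.752), and each of these overlapped. Among pan-leukocyte markers 1 of 4 fell in castrated TEC, and 0 of 8 neutrophil markers were called by limma. Both calls were lost without castrated array 2 (Orm1 -1.05, adjusted p = 0.0574, and Hp -1.39, adjusted p = 0.0865), and Hp's also without castrated array 3 (-1.35, adjusted p = 0.085). Leaving out the 4 arrays that stood apart kept only array 1 of the castrated group. The differences were then -1.15 for Orm1 and -0.72 for Hp, and their p is not given. Against unoperated middle-aged TEC, the same castrated arrays differed by -0.17 for Orm1 and -0.38 for Hp (adjusted p = 0.702 and 0.546).

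At day 7 none of the 5 members passed the threshold in TEC with limma, although 4 had an unadjusted p under 0.05, where 0.171% of all genes were called and 1077 had such a p. Serpina3n read 8.76, 8.90 and 8.59 in castrated day 7 TEC, against 10.72, 10.06 and 9.31 in sham day 7 TEC. The groups did not overlap (-1.28 ± 0.28, adjusted p = 0.0588). Lcn2 read 10.53, 10.47 and 10.92 in castrated day 7 TEC, against 11.81, 11.69 and 11.94 in sham day 7 TEC, also without overlap (-1.17 ± 0.27, adjusted p = 0.0787). Orm1 read 8.44, 8.33 and 8.32 in castrated day 7 TEC, against 8.94, 9.28 and 9.26 in sham day 7 TEC, again without overlap (-0.80 ± 0.18, adjusted p = 0.0757). Hp differed by -0.58 ± 0.27 without overlap (adjusted p = 0.363), and Saa3 by -0.04 ± 0.37 with overlap (adjusted p = 0.977). Without the 4 arrays that stood apart, none of them from this day, Serpina3n, Lcn2 and Orm1 had adjusted p of 0.0098, 0.00291 and 0.00897 at the same differences. Without sham array 3 the Serpina3n difference was -1.64 (adjusted p = 0.0334).

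At day 20 all 5 members tested changed in TEC, 2 down and 3 up, where 22.2% of all genes were called. Serpina3n and Lcn2, which encode the protease inhibitor and the siderophore-binding protein, fell in castrated TEC, and Saa3, Orm1 and Hp rose. Serpina3n read 7.81, 7.79 and 7.89 in castrated day 20 TEC, against 10.93, 10.48 and 10.81 in sham day 20 TEC. The fall of 2.91 ± 0.28 (7.49-fold lower, adjusted p = 2.62e-06) was far larger than the spread within either group. Lcn2 read 10.09, 9.83 and 9.87 in castrated day 20 TEC, against 12.00, 11.97 and 11.95 in sham day 20 TEC. Its groups were likewise far apart, and it fell by 2.05 ± 0.27 (4.14-fold lower, adjusted p = 4.28e-05). Saa3 read 11.74, 11.34 and 11.36 in castrated day 20 TEC, against 9.91, 9.33 and 9.30 in sham day 20 TEC. Every castrated array exceeded every sham array, and Saa3 rose by 1.96 ± 0.37 (3.9-fold higher, adjusted p = 0.00078). Orm1 read 9.35, 9.21 and 9.42 in castrated day 20 TEC, against 8.37, 7.91 and 8.05 in sham day 20 TEC. Hp read 8.55, 8.04 and 8.61 in castrated day 20 TEC, against 7.11, 6.79 and 6.80 in sham day 20 TEC. Neither overlapped, and the rises were 1.22 ± 0.18 for Orm1 (adjusted p = 0.000105) and 1.5 ± 0.27 for Hp (adjusted p = 0.000489), with 1.32 and 1.69 by the other Hp probes. All 5 calls held whichever single array was left out, and against sham TEC pooled over the 3 days the rises were smaller for Orm1 (0.40, adjusted p = 0.0371) and Hp (0.38, adjusted p = 0.166).

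**Figure D5:**
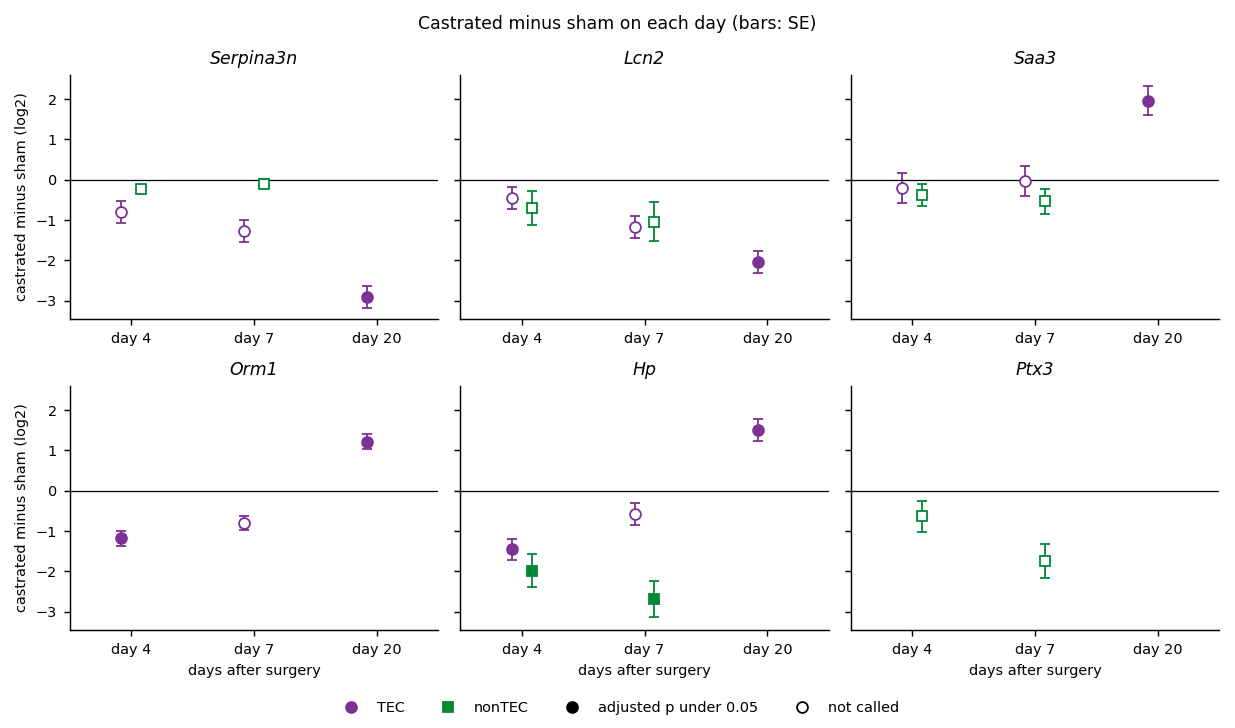
Castrated minus sham difference (log2, y axis) of each acute-phase gene on each day after surgery (x axis) in TEC (circles) and nonTEC (squares), with bars of 1 SE. Filled symbols passed an adjusted p of 0.05 in limma, and genes not tested in a fraction have no symbol there. In TEC Orm1 and Hp lie under 0 at day 4 (-1.18 and -1.45) and above it at day 20 (1.22 and 1.5), while Serpina3n and Lcn2 lie lowest at day 20 (-2.91 and -2.05).

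The castration difference in TEC changed over the 3 days for all 5 members tested, by limma's F test of the differences, where 16.9% of all genes were called. Orm1 had the largest F of the 5 (51.6, adjusted p = 1.57e-05), with differences of -1.18, -0.80 and 1.22 at days 4, 7 and 20. Hp followed (F = 32.6, adjusted p = 0.000117), with -1.45, -0.58 and 1.5. The F was 15.9 for Serpina3n (adjusted p = 0.00245), 10.8 for Saa3 (adjusted p = 0.00991) and 8.78 for Lcn2 (adjusted p = 0.0187, or 0.0825 with all 41 arrays in the fit). The sham values moved too: sham TEC averaged 9.53, 9.16 and 8.11 for Orm1 at days 4, 7 and 20 and 8.74, 8.41 and 6.90 for Hp, whereas castrated TEC averaged 8.34, 8.36 and 9.33 for Orm1 and 7.29, 7.83 and 8.4 for Hp. Whether the days were run as separate sets of arrays is not given in the sources used here, so day and array set cannot be told apart in levels set across days.

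The ageing and day 20 castration differences in TEC share no arrays, and the 4 members called in both had opposite signs in them. Saa3, Orm1 and Hp were lower with age and higher after castration, and Lcn2 was higher with age and lower after castration. Of the 837 genes called in both comparisons, 835 (99.8%) also had opposite signs, so the members' share is that of all such genes. Serpina3n, called at day 20, differed by 0.09 with age.

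In nonTEC the castrated mice had lower Hp on both days sampled. At day 4 this was 1 of 5 members tested, where 6.12% of all genes were called, and Hp read 8.36, 9.12 and 8.97 in castrated nonTEC, against 10.74, 10.70 and 10.96 in sham nonTEC. At day 7 it was again 1 of 5, where 0.438% of all genes were called, and Hp read 7.88, 8.20 and 8.50 in castrated nonTEC, against 10.84 and 10.91 in sham nonTEC. On neither day did the groups overlap, and Hp fell by 1.98 ± 0.40 at day 4 (adjusted p = 0.00985) and by 2.69 ± 0.45 at day 7 (6.43-fold lower, adjusted p = 0.0119). The other Hp probes gave -1.78 and -1.52 at day 4 and -2.43 and -2.63 at day 7. The day 4 call was lost without castrated array 1 (-1.75, adjusted p = 0.078) or sham array 3 (-1.90, adjusted p = 0.0637), and the day 7 call without castrated array 1 (-2.53, adjusted p = 0.0548), sham array 1 (-2.72, adjusted p = 0.133) or sham array 2 (-2.65, adjusted p = 0.364).

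Ptx3 read 9.13, 9.52 and 9.11 in castrated day 7 nonTEC, against 11.11 and 10.88 in sham day 7 nonTEC. The groups were apart by more than either's spread, but the difference of -1.74 ± 0.43 did not pass (adjusted p = 0.0748), and its second probe gave -1.90. At day 4 Ptx3 differed by -0.63 ± 0.38 with overlap (adjusted p = 0.354). Set against unoperated middle-aged nonTEC, castrated nonTEC differed in Ptx3 by -1.42 at day 4 and -2.30 at day 7 (adjusted p = 0.0323 and 0.00252). Lcn2 was lower without overlap on both days and not called, at -0.69 ± 0.42 on day 4 and -1.04 ± 0.47 on day 7 (adjusted p = 0.359 and 0.452). Saa3 differed by -0.39 ± 0.28 and -0.53 ± 0.31, and Serpina3n by -0.23 ± 0.10 and -0.10 ± 0.11, none of them called. By limma no member differed between days 7 and 4 in its castration difference (0 of 5, and 0 of 5 with an unadjusted p under 0.05, where 0% of all genes were called and 798 had such a p).

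Markers of other cells rose in castrated nonTEC at day 4, where Hp fell. Of the markers tested, 4 of 5 epithelial, 5 of 6 thymocyte and 4 of 4 pan-leukocyte genes rose in castrated nonTEC, where 6.12% of all genes were called. Among those tested, Aire and Cldn4 passed the threshold in only 1 of the 6 nonTEC groups, Rac2 in 2, and Rag1 and Dntt in 3. These counts therefore rest partly on genes under the threshold in several groups. The mean of the thymocyte list read 8.94, 8.15 and 7.46 in castrated nonTEC, against 6.97, 7.06 and 6.73 in sham nonTEC, and that of the epithelial list 6.84, 7.05 and 6.53 in castrated nonTEC, against 5.66, 5.86 and 5.74 in sham nonTEC. The keratin gene Krt5, the cadherin gene Cdh1 and the CD45 gene Ptprc were under the threshold in all 6 nonTEC groups, while Krt8, Krt14, Coro1a, Cd52 and Laptm5 were above it in all 6. At day 7 limma called none of these markers, and the list medians were 0.93, 0.74 and 0.62 for the epithelial, thymocyte and pan-leukocyte lists, of which 3 of 5, 1 of 6 and 2 of 4 had an unadjusted p under 0.05. Of the 7762 genes tested, 797 had such a p and 0.438% were called. The part of the markers in the fall of Hp was not tested. Of the adipocyte markers, Adipoq was under the threshold in all 6 nonTEC groups, Pparg above it in 2 and Lpl in all 6.

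Between the fractions, 1 of 6 members was called for its castration difference at day 4, where 9.13% of 8487 genes were. This was Orm1 (TEC minus nonTEC, -1.24 ± 0.29, adjusted p = 0.00932), which was under the threshold in all 6 nonTEC groups, so the value adds nothing to its fall in TEC. Orm1 was not called with only the groups compared (adjusted p = 0.0698). Without the 4 arrays that stood apart, which kept only array 1 of castrated day 4 TEC, its value was -1.21. At day 7 no member was called by limma (0 of 6, where 0.0236% of genes were called). An unadjusted p under 0.05 was found for 4 of 6 members and for 642 of the 8487 genes. These members included Orm1, and Ptx3, which was under the threshold in all 8 TEC groups. At day 7 Hp gave 2.11 ± 0.54 (adjusted p = 0.165) and Serpina3n -1.18 ± 0.33 (adjusted p = 0.223). Without sham day 7 TEC array 3 Serpina3n gave -1.54 (adjusted p = 0.0465).

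Sham mice set against unoperated middle-aged mice show how operated mice that were not castrated differed from unoperated ones. These comparisons share the middle-aged arrays with the ageing comparison and the sham arrays with the castration comparisons. In sham day 4 TEC Orm1 and Hp were higher than in unoperated middle-aged TEC, 2 of 5 members, where 2.42% of all genes were called. Orm1 was higher by 1.01 ± 0.18 (adjusted p = 0.0109) and Hp by 1.07 ± 0.27 (adjusted p = 0.0408), both without overlap. Hp was no longer called without sham array 3 (0.68, adjusted p = 0.13) or middle-aged array 2 (0.95, adjusted p = 0.0923). The Hp call was also lost with no filter on dim probes (adjusted p = 0.0532) and with all 41 arrays fitted together (adjusted p = 0.0894). With only the groups compared in limma's fit, neither Orm1 nor Hp was called (adjusted p = 0.873 for both). In sham day 7 TEC limma called 0 of 5 members, where 0.0244% of genes were called. An unadjusted p under 0.05 was found for 2 of the 5 and for 1370 of the 8195 genes tested. Orm1 was there at 0.64 ± 0.18 and Hp at 0.74 ± 0.27 above unoperated TEC (adjusted p = 0.0998 and 0.177), and both were called without the 4 arrays that stood apart (0.74 and 0.82, adjusted p = 0.0138 and 0.0243). In sham day 20 TEC only Hp passed, 1 of 5 where 48.9% of genes did, and it differed by -0.77 ± 0.27 (adjusted p = 0.0218), but its other probes gave 0.51 and 0.20, with the opposite sign. In nonTEC limma called none of the 5 members at day 4 or day 7, and none had an unadjusted p under 0.05, where 0.0386% and 0% of genes were called and 1332 and 1094 had such a p.

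Other reactants of the acute phase were read from a list of 36 genes, of which 15 were tested in TEC and 12 in nonTEC. In ageing TEC 2 rose and 4 fell (6 of 15, where 18.6% of all genes were called), with a median difference of -0.56 beside 0.01 over all genes. Saa1, another serum amyloid A gene, fell by 1.64 ± 0.21 with age (adjusted p = 7.73e-05), with means of 9.65 in middle-aged and 11.29 in young TEC. Hpx, the haem carrier haemopexin, fell by 1.03 ± 0.22 (adjusted p = 0.00395). At day 20 after castration 7 rose and 1 fell, where 22.2% of all genes were called, with a median of 0.67 beside -0.04 over all genes. The same pair rose, Saa1 by 1.87 ± 0.21 (adjusted p = 1.31e-05) and Hpx by 1.15 ± 0.22 (adjusted p = 0.000912). At day 4 the 1 gene called of 15 was Lbp, where 3.82% of all genes were called. Lbp, which encodes the protein that binds bacterial lipopolysaccharide, was higher by 1.01 ± 0.25 in castrated TEC. At day 7 limma called none of the 15, and 2 had an unadjusted p under 0.05, where 0.171% of all genes were called and 1077 had such a p. In ageing nonTEC 3 rose and 1 fell, 4 of 12 and so near the 32.4% of all genes called. The copper carrier ceruloplasmin, Cp, rose by 0.90 ± 0.14 (adjusted p = 0.000183), and Saa1 fell by 2.02 ± 0.34 (adjusted p = 0.000376). In castrated day 4 nonTEC the 1 call of 12 was Lbp, where 6.12% of all genes were called. Lbp differed by -1.02 ± 0.24 there (adjusted p = 0.0201). Of genes that fall in the liver's acute phase 3 were tested in TEC, and the plasma carriers Apoa1 (-1.16 ± 0.30) and Ttr (-1.28 ± 0.44) fell with age and rose at day 20 after castration (1.63 ± 0.30 and 1.99 ± 0.44). Of all genes tested in TEC, 18.6% were called with age and 22.2% at day 20.

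Of the transcription factors and feedback inhibitors of this response, 12 were tested in TEC. Socs3, the STAT3-induced inhibitor of cytokine signalling, and Nfkbiz, which encodes a nuclear co-regulator of NF-kB, rose with age by 1.40 ± 0.20 and 1.29 ± 0.18, among 3 called up and 1 down. Of all genes tested in TEC, 18.6% were called with age. Socs3 and Nfkbiz were the only genes of the 12 called at day 20 after castration, where 22.2% of all genes were called. The differences were -1.59 ± 0.20 for Socs3 (adjusted p = 3.29e-05) and -1.51 ± 0.18 for Nfkbiz (adjusted p = 1.65e-05). Their direction was that of Lcn2, and opposite to that of Saa3, Orm1 and Hp, in both comparisons. Of all genes called in both, 99.8% had opposite signs in them, so this reversal is not particular to Socs3 and Nfkbiz. The part of these regulators in the members' differences was not tested. In ageing nonTEC 6 of 11 rose and none fell, where 32.4% of all genes were called. The C/EBP gene Cebpd (1.02 ± 0.20, adjusted p = 0.00107) and Nfkbiz (0.74 ± 0.16) led them. Among the receptors, Il6st, the shared signal chain of the interleukin-6 family, was higher by 0.92 ± 0.20 in ageing TEC, by 1.16 ± 0.20 in castrated day 4 TEC, and differed by -1.16 ± 0.20 in castrated day 20 TEC. Osmr, the oncostatin M receptor, was higher by 1.59 ± 0.42 in castrated day 4 TEC. Of the inducing cytokines only 2 of 10 were tested in TEC and 3 in nonTEC. Il1b fell by 0.85 ± 0.30 in ageing TEC (adjusted p = 0.0498) and by 1.54 ± 0.49 in ageing nonTEC, where Osm, oncostatin M, fell by 1.67 ± 0.38.

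Of 8 glucocorticoid targets tested in TEC 3 rose with age and 4 fell at day 20 after castration, where 18.6% and 22.2% of all genes were called. Pdk4, a kinase that restrains glucose oxidation, was 1.34 ± 0.30 higher with age and fell by 2.19 ± 0.30 at day 20, and Fkbp5, a chaperone of the glucocorticoid receptor, was 0.63 ± 0.14 higher with age and fell by 0.89 ± 0.14 at day 20. Of 11 immediate early genes, which respond within minutes to stimulation and also to tissue digestion, 7 rose with age and 8 fell at day 20. Zfp36, which encodes an mRNA-destabilising protein, was 1.31 ± 0.15 higher with age and fell by 1.17 ± 0.15 at day 20. The part of these genes in the members' differences was not tested. Of the members' receptors and partners, Tlr4 rose by 0.89 ± 0.24 and C1qb fell by 1.27 ± 0.31 in ageing TEC, and at day 20 Tlr4 fell by 1.19 ± 0.24 and C1qb rose by 1.54 ± 0.31.

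At day 20, where 22.2% of all genes were called, markers of leukocytes rose in castrated TEC beside Saa3, Orm1 and Hp. These were 6 of 8 neutrophil, 4 of 4 pan-leukocyte and 2 of 4 macrophage markers tested. The adipocyte markers tested also rose, 2 of 2. Of that pair Adipoq passed the threshold in only 2 of the 8 TEC groups, so the filter could set part of that count. The neutrophil mean read 7.96, 7.85 and 7.95 in castrated day 20 TEC, against 7.37, 7.22 and 7.06 in sham day 20 TEC, and the pan-leukocyte mean 11.24, 10.98 and 11.17 in castrated day 20 TEC, against 10.11, 9.75 and 9.91 in sham day 20 TEC. As above, the neutrophil genes Ngp, Prtn3, Ctsg, Retnlg and Csf3r were under the threshold in all 8 TEC groups. The other 8 of the 13 measured, among them Camp, Mpo and Pglyrp1, were above it in all 8. The part of these genes in the rises was not tested.

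The genes whose levels ran most like each member's were found by Pearson correlation over the 24 TEC or 17 nonTEC arrays, which share their groups and their normalization, so the values describe shared differences between groups. In TEC Orm1 and Hp were among each other's nearest genes (r = 0.909). Serpina3n ran most like the vasopressin receptor gene Avpr1a (0.839) and Lcn2 like Sybu (0.907), Fam107a (0.875) and Trim9 (0.863). Saa3 ran most like Gsta1 (0.943), a glutathione transferase gene, and Sftpd (0.943), which encodes surfactant protein D. In nonTEC Lcn2 ran most like Chil3, Prtn3 and Ngp (0.896, 0.895 and 0.890), all 3 on the neutrophil list. Each of these 3 was above the threshold in only 1 of the 6 nonTEC groups and was tested only through it. Their r with Lcn2 therefore rests largely on that group, and nothing is drawn from it. Ptx3 ran most like Gfpt2 (0.947), an enzyme gene of the hexosamine pathway, and Hp like Gpx3 (0.936), which encodes the plasma glutathione peroxidase. Among the members themselves, Lcn2 and Saa3 had r of -0.73 in TEC and 0.75 in nonTEC, and Hp and Ptx3 had 0.72 in nonTEC. In nonTEC Saa3 was above the threshold in 1 of 6 groups only. Deviations from group means gave r of -0.43 in TEC and -0.07 in nonTEC for Lcn2 and Saa3. For Hp and Ptx3 in nonTEC they gave 0.60.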

How the data were processed

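The deposited values are normalized log2 intensities per probe of Illumina arrays. Per the submitters' processing notes, limma was used, with no version or role named. No source used here gives the background correction or any detection filter. The logarithm was taken as base 2 from the range of the values. Per the labels' protocols, RNA of sorted cells was amplified to biotinylated cRNA. The values were used as deposited. Of 24671 probes, 20825 had 1 listed gene, 11 had several and 3835 had none. A fit used only probes with a value on every array it covered. These were 21242 probes for TEC, 21815 for nonTEC and 18386 for the joint fit of 41 arrays. For each gene the probe with the highest mean over the 41 arrays was taken. The gene was tested where at least 1 mean of the groups fitted exceeded 6.73. This left 8195 genes for TEC, 7762 for nonTEC and 8487 for the joint fit, where passing in 1 fraction was enough. A linear model of group means with a trended prior variance (limma 3.58.1 under R 4.3.3) was run within each fraction, or over all 41 arrays for comparisons between fractions, with 16, 11 and 27 residual degrees of freedom. The 19 comparisons are contrasts of these means. The fit was tested on simulated data. Alternatives were other normalizations, filters, probe rules, controls, array weights and sets of arrays, and each array left out in turn. Deviations from the group mean on same-numbered arrays of different groups correlated from -0.44 to 0.73 in TEC, with a median of 0.05. On arrays of different number they correlated from -0.77 to 0.55, with a median of -0.03. These values do not exclude a pairing, but the labels do not bear one out, and the main fits did not pair arrays. The members, lists and tests were chosen with earlier results of these data known. The text counts the members called in every comparison and names those called. It also names up to 2 genes of smallest p of each list, and for each member up to 3 genes most like it. Figures were drawn with Python 3.11.15.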

Additional observations from a re-analysis of the deposited data

Results flagged for a closer look

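The castration difference in TEC differed between days 4, 7 and 20 for 5 members by limma's F test: F was 15.9 for Serpina3n (adjusted p = 0.00245), 8.78 for Lcn2 (adjusted p = 0.0187), 10.8 for Saa3 (adjusted p = 0.00991), 51.6 for Orm1 (adjusted p = 1.57e-05) and 32.6 for Hp (adjusted p = 0.000117). The ageing difference differed between the fractions, TEC minus nonTEC, for Lcn2 (3.0, adjusted p = 0.000379), Hp (-2.75, adjusted p = 0.000612) and Ptx3 (-3.20, adjusted p = 0.000353), in limma's fit of all 41 arrays, with Ptx3 under the threshold in all 8 TEC groups. The castration difference at day 4 differed between the fractions for Orm1 (-1.24, adjusted p = 0.00932), which was under the threshold in all 6 nonTEC groups.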

How the results depend on the processing

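No member's called difference changed sign in the alternative fits, but Hp in sham day 20 TEC (-0.77) had the opposite sign by its other single probes (0.51 and 0.20). Of 472 recomputed values of called differences under other settings 25 lost the call, and of 323 with 1 array left out 19 did. The counts below are members called. The count over all genes also changed with the setting, to as many as 2322 and 2265 for castration at days 4 and 7 in TEC. A member count below is therefore not to be set beside the share of all genes called in the main fit. With only the compared groups fitted, the count was 0 for ageing in TEC, 3 for ageing in nonTEC, 0 and 1 for castration at days 4 and 7 in TEC, 3 for castration at day 7 in nonTEC, 0 for sham day 4 against unoperated TEC, 1 for the ageing difference between fractions, and 0 and 2 for the castration difference between fractions at days 4 and 7. With array weights it was 4 and 4 for castration at days 4 and 7 in TEC, 2 and 2 in nonTEC, 2 and 4 for sham day 7 and day 20 against unoperated TEC, and 2 and 3 for the castration difference between fractions at days 4 and 7. With all 41 arrays fitted together it was 1 for castration at day 7 in TEC, 1 for sham day 4 and 0 for sham day 20 against unoperated TEC. With the mean of all probes it was 0 for sham day 20, and with no filter on dim probes 1 for sham day 4. With the replicate number as a block, a replicate block that the labels do not bear out as a pairing, it was 1 for castration at day 7 in TEC and 2 for sham day 20, and no other count of members moved by over 1.5 times. With sham arrays pooled over days it was 4 and 3 for castration at days 4 and 7 in TEC and 2 and 2 in nonTEC, and with unoperated arrays as control 0 and 1 in TEC and 2 and 2 in nonTEC. Without the 4 arrays that stood apart it was 3 for castration at day 7 in TEC and 2 for sham day 7. For castration at day 4 this fit kept only array 1 of castrated TEC, so no count is given there. Leaving out 1 array at a time gave 0 to 2 and 0 to 1 for castration at days 4 and 7 in TEC, 0 to 1 on both days in nonTEC, 1 to 3, 0 to 1 and 0 to 3 for sham days 4, 7 and 20 in TEC, and 0 to 1 for the castration difference between fractions at day 7. Over all genes the count for ageing in TEC ran from 8 (only the compared groups) to 3174, for castration at day 20 in TEC from 1170 to 4290, for ageing in nonTEC from 1333 to 2816, for castration at days 4 and 7 in TEC from 0 to 2322 and from 0 to 2265, and for castration at days 4 and 7 in nonTEC from 53 to 1851 and from 0 to 988, so the shares of all genes called on those days are uncertain.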
